A study of Homo sapiens with 7 samples.

Results

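The 40 genes described here carry out DNA replication and drive cells out of G1 into S phase. They were chosen by gene symbol from a fixed list of names, made with earlier results of these data known but with no measured value in the rule. All 40 had a row in every mRNA library, among 15659 gene symbols counted in all. By role they fall into 10 genes of origin licensing, 19 of the replication fork, 6 of nucleotide supply and related S-phase functions, and 5 cyclins and regulators. Both compared groups were HCT116 DROSHA-KO cells, and they received either miR-148a-3p (3 libraries) or a control miRNA (3 libraries). HCT116 is an established human colorectal carcinoma line, and the knockout carried by both groups removes the nuclease that starts microRNA processing. Cells were harvested at 48 h, and each library was made from 500 ng of RNA with an oligo-dT primer, which primes on polyadenylated transcripts. The sources used here do not say whether the knockout line is 1 clone, nor give the sequence or dose of the control miRNA.

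Library totals ran from 630142 to 1564125 counts in the miR-148a-3p group and from 876131 to 1069154 counts in the control group, and replicate 1 was the deepest library of each group. Of 10 colon epithelium markers 9 were counted, with sums of 1068 to 2887 counts in the miR-148a-3p libraries and 1554 to 2134 in the control libraries. Most of these counts were of the keratins KRT18, KRT19 and KRT8. Per library CLDN4 had 42 to 123 counts, CDX2 13 to 49, EPCAM 16 to 28 and CLDN3 4 to 25. CDH1 had only 1 to 13 and VIL1 0 to 2, while CDX1 was at 0 throughout. All 9 blood markers, PTPRC and CD34 among them, were at 0 in every library. Of 9 fibroblast and endothelium markers 5 were counted, with sums of 28 to 83 counts in the miR-148a-3p libraries and 34 to 85 in the control libraries, mostly from COL1A1, and DCN, LUM and CDH5 were at 0. DROSHA had 20, 15 and 13 counts in the miR-148a-3p libraries and 31, 16 and 16 in the control libraries. Counts summed over a gene do not show where in it the reads lie, so they do not check the knockout. On the first principal component, which held 29.8% of the variance, miR-148a-3p replicate 3 (34.2) and control replicate 1 (-31.4) lay farthest from the other libraries, which ran from -8.29 to 13.1.

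Replication origins are licensed in G1, when the origin recognition complex, CDC6 and CDT1 load the ring-shaped MCM2 to MCM7 helicase onto DNA. At the G1/S transition, D-type and E-type cyclins with their kinases phosphorylate RB1 and free E2F transcription factors, which switch on much of the replication gene set. CDC45 and the GINS complex then convert the loaded MCM ring into a moving helicase, and polymerases, the PCNA clamp, its RFC loader, RPA, FEN1 and LIG1 copy and join the strands while ribonucleotide reductase, thymidylate synthase and thymidine kinase supply deoxynucleotides. Most of these transcripts peak around G1/S, so their level in a culture also depends on how many cells are in that phase. In bulk libraries, fewer cells of a phase and less RNA per cell cannot be told apart.

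The transfected microRNA is shown first, because its seed (bases 2 to 8, in capitals) is what a target transcript pairs with. The mature sequence below is the RefSeq one of human miR-148a-3p, which lies on the minus strand at chr7:25949922-25949943 (GRCh38.p14).
miR-148a-3p: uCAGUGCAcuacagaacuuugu
The span of MCM7, a subunit of the helicase, also holds 3 microRNA genes, MIR25, MIR93 and MIR106B, on its own strand (minus) at chr7:100093571-100094063. An arm of each is shown with the seed in capitals, because DROSHA-dependent microRNAs and a replication helicase share this transcription unit.
miR-25-3p: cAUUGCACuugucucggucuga
miR-93-5p: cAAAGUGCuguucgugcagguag
miR-106b-5p: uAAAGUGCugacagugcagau
miR-93-5p and miR-106b-5p share the seed AAAGUGC, and miR-25-3p has AUUGCAC, so none of the 3 has the CAGUGCA seed of miR-148a-3p. In the 1 small RNA library of HCT116 wild-type cells, which has no replicate and no transfection, miR-25-3p had 19534 of 3627859 counts (0.538%, 95% Wilson interval 0.531 to 0.546%) and ranked 25 among 1023 microRNA names. Without transfection miR-148a-3p itself had 253510 counts there (6.99%, 95% Wilson interval 6.96 to 7.01%) and ranked 3. In the same library miR-93-5p had 5033 counts (0.139%) and ranked 53, and miR-106b-5p had 571 counts (0.0157%), fewer than the 1525 counts (0.0420%) of miR-106b-3p from the other arm of its hairpin. The 6 arms of the MCM7 cluster summed to 26790 counts (0.739%, 95% Wilson interval 0.730 to 0.747%). In contrast, miR-4261, within the span of RRM2 but on the opposite strand, had 0 counts, which allows up to 3 counts. These intervals and this limit cover counting error only, and no small RNA library of the DROSHA-KO cells was used here.

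E2F factors are the textbook activators of these genes, so the promoters were searched for 8-base E2F motifs, and the windows of the 3 members with the smallest p that held one are shown. Each window runs from 250 bases before to 50 bases after the RefSeq start (GRCh38.p14), 5' to 3' on the gene's strand, with motif matches in capitals. They belong to LIG1, the ligase that seals Okazaki fragments (chr19:48170295-48170594, minus strand), to MCM2 (chr3:127598161-127598460, plus strand) and to CDT1, the loading factor of the MCM ring (chr16:88803539-88803838, plus strand).
LIG1: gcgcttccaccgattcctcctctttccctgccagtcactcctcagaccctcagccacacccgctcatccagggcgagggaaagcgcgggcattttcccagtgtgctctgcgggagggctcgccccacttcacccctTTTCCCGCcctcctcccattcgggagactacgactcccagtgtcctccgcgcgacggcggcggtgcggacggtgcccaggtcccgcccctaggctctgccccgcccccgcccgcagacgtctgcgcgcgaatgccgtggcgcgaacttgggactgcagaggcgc
MCM2: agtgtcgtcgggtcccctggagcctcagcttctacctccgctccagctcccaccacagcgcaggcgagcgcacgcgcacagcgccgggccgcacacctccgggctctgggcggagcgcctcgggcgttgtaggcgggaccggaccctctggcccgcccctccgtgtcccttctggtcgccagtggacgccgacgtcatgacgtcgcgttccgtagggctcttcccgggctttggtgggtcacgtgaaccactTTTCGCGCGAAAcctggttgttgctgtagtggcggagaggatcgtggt
CDT1: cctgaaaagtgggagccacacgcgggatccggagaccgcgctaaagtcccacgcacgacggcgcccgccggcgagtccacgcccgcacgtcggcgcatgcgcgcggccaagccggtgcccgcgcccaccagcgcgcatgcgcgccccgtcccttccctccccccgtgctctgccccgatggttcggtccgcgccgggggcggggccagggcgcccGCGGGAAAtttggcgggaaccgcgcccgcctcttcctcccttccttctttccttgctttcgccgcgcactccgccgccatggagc
The letters searched were TTTCCCGC, TTTCGCGC, TTTGCCGC and TTTGGCGC with their reverse complements. The MCM2 window holds overlapping matches on both strands at 2 and 6 bases after the start, the CDT1 match begins 35 bases before the start, and the LIG1 match begins 114 bases before it. A match was present in 18 of the 33 members with a window (54.5%), against 533 of 7301 tested genes (7.30%) and 1090 of 27305 genes with a window (3.99%). By subgroup it was present in 6 of 8 licensing members, 8 of 16 fork members, 2 of 6 nucleotide members and 2 of 3 cyclin members. MCM6 held 4 matches, and E2F1, whose own promoter is a known E2F target, held 2. Members with several annotated starts had several windows, any of which counted.

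**Figure D1:**
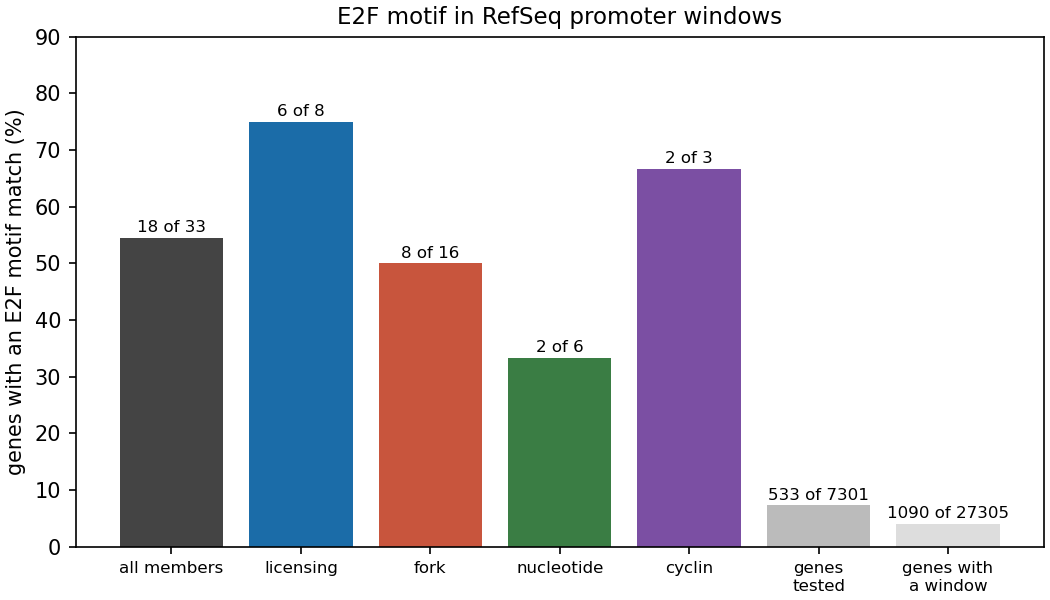
Share of genes with an E2F motif match in a RefSeq promoter window (percent, vertical axis, from 0), for all members, the 4 subgroups, all tested genes and all genes with a window, with the number of genes above each bar. The bar of all members stands at 54.5%, against 7.30% for tested genes.

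Other letters separated the members from the tested genes less. CCAAT, on either strand, was present in 21 of 33 members (63.6%) and in 44.2% of tested genes, and the GGGCGG box was present in 27 of 33 members (81.8%) and in 80.2% of tested genes. CCND1, MCM5, RPA2, RPA3, MCM4, CCNE2 and GINS4 had no window here. A match is a description of letters in a window and not of a bound site. Among tested members, 14 of 17 with an E2F match had a higher fitted value in the miR-148a-3p group with a median log2 fold change of 0.26, and 10 of 15 without one had a higher fitted value with a median of 0.23. The search left out near variants such as TTTGGCGG, present in windows of CDC45 and MCM10, which were counted as having no match. The ranges of these sets were not compared by a test.

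With miR-148a-3p, no member passed the test, while most had fitted values above those with the control miRNA. Of the 40 members 39 passed the filter on low counts, and 28 of these (71.8%) had a higher fitted value in the miR-148a-3p group, against 49.5% of all 8921 genes tested. The median log2 fold change, miR-148a-3p over control, was 0.23 for the members and -0.0039 for all genes tested, and the members ran from -0.43 for POLD1 to 1.02 for LIG1. Averaged over the members, log2 CPM had a within-group SD of 0.30 among libraries, larger than this median. Many members shifted together by library, so shares of members do not count independent replicates. In edgeR's quasi-likelihood test with Benjamini-Hochberg adjustment over all 8921 genes, 0 of 39 members had an adjusted p below 0.05, and 1 gene did in all (0.0112%). An unadjusted p below 0.05 was found for 606 of all genes tested (6.79%) and for 6 members, all higher in the miR-148a-3p group (15.4% of 39, against 3.4% of all genes tested in that direction), and 0 lower. The 6 were LIG1, TK1, MCM2, CDT1, RFC2 and MCM6, and the smallest adjusted p was 0.322. DESeq2 also called 0 members (0.0224% of all genes tested) and limma-voom called 0 (0.0336%). At an unadjusted p below 0.05, DESeq2 had 4 members, all higher (2.49% of all genes tested in that direction), and limma-voom 5, all higher (3.43%). The edgeR count of 6 was 3 without miR-148a-3p replicate 2 (2.48% of all genes tested, higher) and 11 without miR-148a-3p replicate 1 (4.18%). Higher fitted values were given to 28 members by DESeq2 (49.6% of all genes tested) and to 27 by limma-voom (50.4%). Fitted values above 0.5 on the log2 scale were found for 8 members (8.36% of all genes tested) and values below -0.5 for 0 (8.06% of all genes tested).

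The 3 libraries of each group overlapped for nearly all members. All miR-148a-3p libraries lay above all control libraries for 2 of 39 members, LIG1 and MCM5 (5.13%, against 6.22% of all genes tested), which is a share near the background. All lay below for 0 members (6.59% of all genes tested). Leaving out 1 library at a time also left 0 members past the threshold, against 0.0108, 0.0107 and 0.0213% of all genes without miR-148a-3p replicates 1, 2 and 3, and 0.279, 0.0107 and 0.0108% without control replicates 1, 2 and 3. Between 25 members (without control replicate 1) and 34 members (without miR-148a-3p replicate 1) then had a higher fitted value. The share of all genes higher was 48.8, 49.8 and 49.3% without miR-148a-3p replicates 1, 2 and 3, and 51, 49.4 and 50.3% without control replicates 1, 2 and 3. Without replicate 1 of both groups 33 of 40 members were higher (50.3% of all genes). Other scalings (0.0112%), a floor of 10 counts in 3 libraries (0.0108%), thinning (0.0123%) and a replicate block (0.0336%) also called 0 members.

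GINS3, a subunit of the GINS complex, was not tested, with 12, 9 and 8 counts in the miR-148a-3p libraries and 8, 6 and 14 counts in the control libraries.

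**Figure D2:**
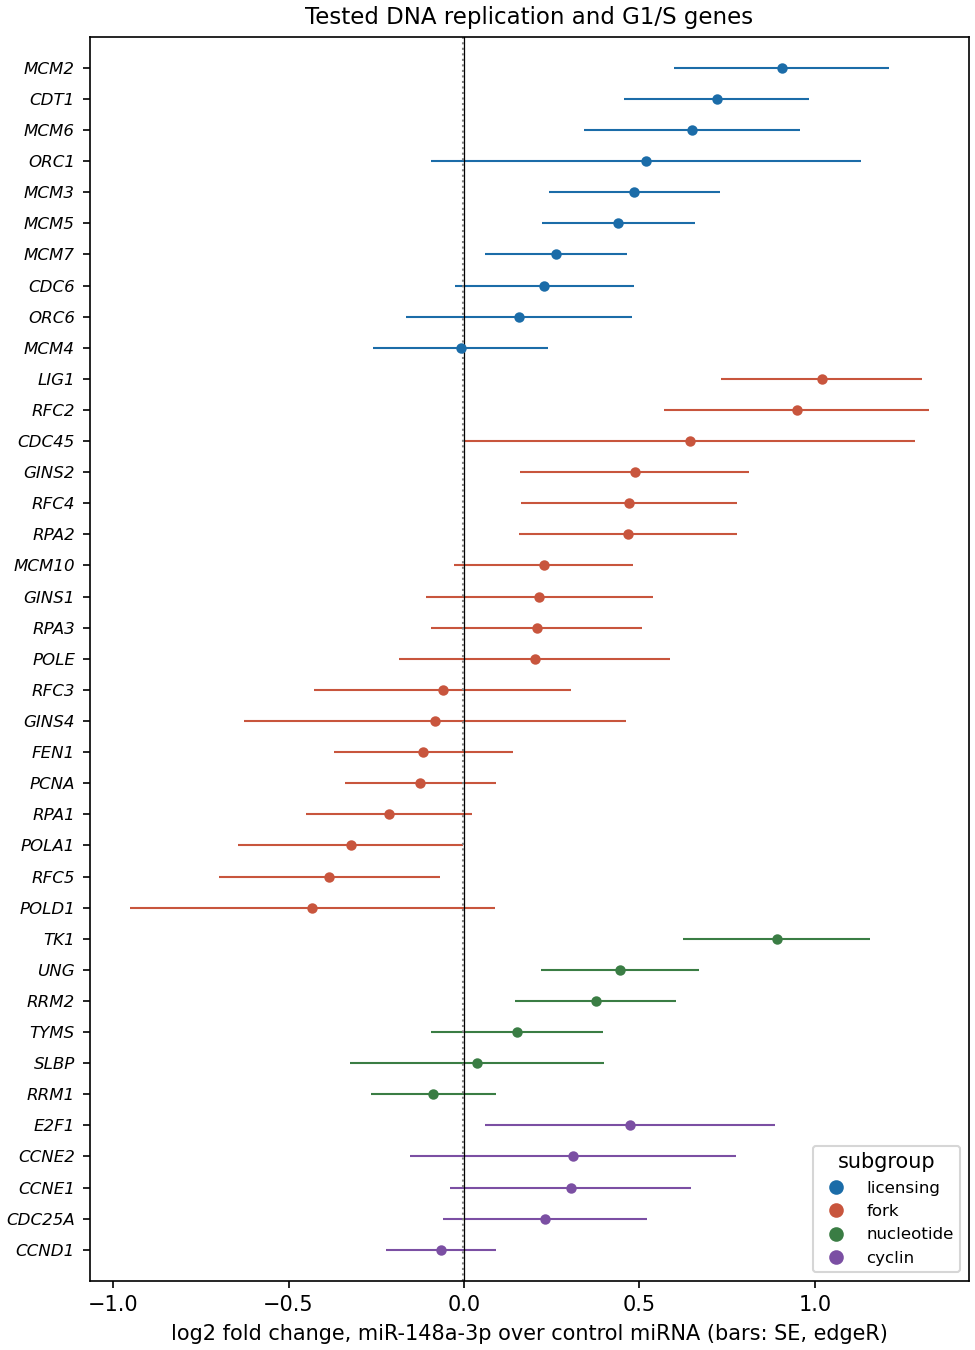
Log2 fold change, miR-148a-3p over control miRNA, for the 39 tested members by subgroup, with bars of 1 SE from edgeR (3 libraries per group). LIG1 at 1.02 lies highest and POLD1 at -0.43 lowest, and the fork members lie on both sides of 0.

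Among the licensing genes, 9 of 10 had a higher fitted value in the miR-148a-3p group, with a median log2 fold change of 0.46 and a range from -0.0097 to 0.91. MCM2, an MCM subunit that also binds histones, had 97.5, 192 and 169.6 CPM in miR-148a-3p replicates 1 to 3, against 33.7, 125 and 85.3 CPM in control replicates 1 to 3 (CPM, counts scaled to a common library size by TMM). The means were 153 ± 49.2 CPM with miR-148a-3p and 81.3 ± 45.7 CPM with control miRNA (SD, n = 3 each), a log2 fold change of 0.91 with an SE of 0.31 and an edgeR adjusted p of 0.504. Replicate 1 was the lowest library of both groups, and miR-148a-3p replicate 1 lay below control replicate 2, so the groups overlapped. Without control replicate 1 the MCM2 value was 0.51, and without control replicate 2 it was 1.36.

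CDT1 had 63.3, 112 and 109 CPM in the miR-148a-3p libraries, against 51.0, 51.3 and 67.1 CPM in the control libraries, with an edgeR log2 fold change of 0.72 (SE 0.26, adjusted p = 0.593). Only miR-148a-3p replicate 1 fell within reach of the control libraries, below control replicate 3. MCM6, another ring subunit, had 49.4, 151 and 110.3 CPM in the miR-148a-3p libraries, against 49.1, 87.5 and 58.0 CPM in the control libraries, with an edgeR log2 fold change of 0.65 (SE 0.31, adjusted p = 0.725). The replicate 1 libraries of both groups were nearly equal, and miR-148a-3p replicates 2 and 3 exceeded every control library. Without miR-148a-3p replicate 2 the MCM6 value was 0.24, and without miR-148a-3p replicate 1 it was 1.03.

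The other 4 ring subunits had fitted values between those of MCM6 and 0, apart from MCM4 just below 0. MCM5 had 115, 144 and 125 CPM in the miR-148a-3p libraries, against 109.8, 85.2 and 86.5 CPM in the control libraries, with an edgeR log2 fold change of 0.44 (SE 0.22). The groups did not overlap, by a narrow margin between miR-148a-3p replicate 1 and control replicate 1. MCM3 had 85.7, 129 and 123.5 CPM in the miR-148a-3p libraries, against 60.7, 99.2 and 79.6 CPM in the control libraries (0.49, SE 0.24), with overlap at replicate 1 and a value of 0.31 without control replicate 1. MCM7 had 267, 382 and 374 CPM in the miR-148a-3p libraries, against 209, 280.0 and 361 CPM in the control libraries (0.26, SE 0.20), and control replicate 3 reached the level of the miR-148a-3p libraries. The MCM7 value ran from 0.077 (without control replicate 1) to 0.48 (without control replicate 3). MCM4 had 92.9, 175 and 104 CPM in the miR-148a-3p libraries, against 147, 141 and 83.0 CPM in the control libraries, and its fitted log2 fold change was -0.0097 (SE 0.25). Its high and low libraries were spread over both groups, and this value changed sign in 5 alternative fits. Of the remaining licensing members, ORC1, the largest origin recognition subunit, had 0.52 (SE 0.61) from 4 to 15 counts per library. ORC6, another subunit of that complex, had 0.16 (SE 0.32), and the loading ATPase CDC6 had 0.23 (SE 0.26).

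**Figure D3:**
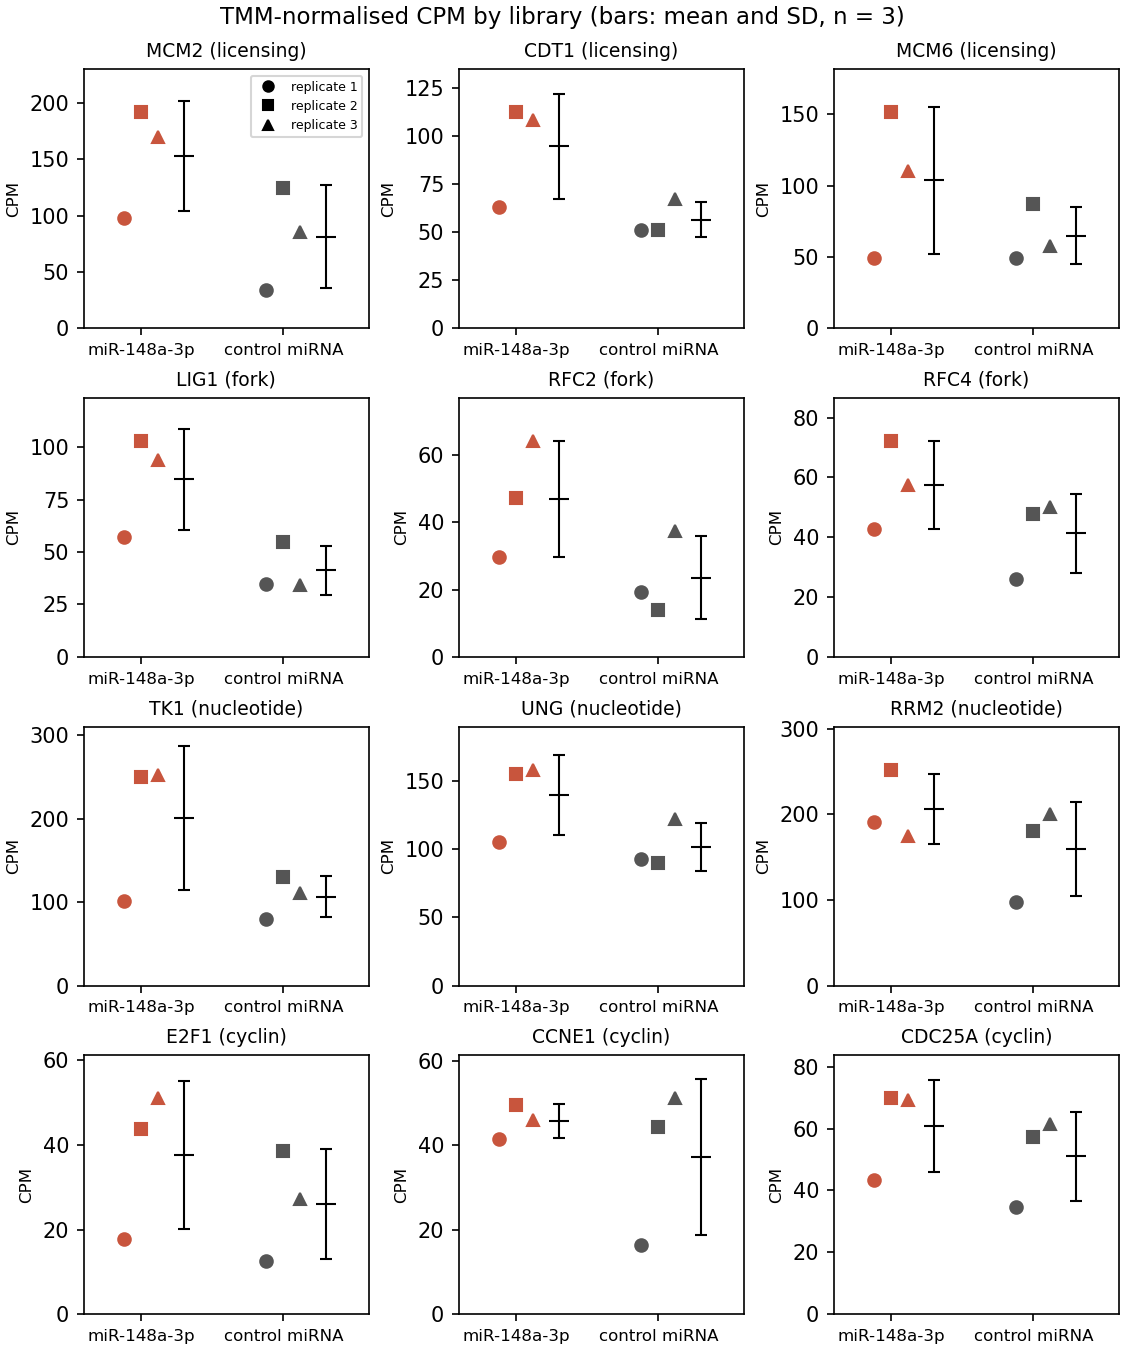
TMM-scaled CPM of the 3 members with the smallest p in each subgroup, 1 point per library with the shape giving the replicate number, miR-148a-3p left of control miRNA, and bars giving the mean and SD (n = 3). Of these 12 genes LIG1 is the one with no overlap between the groups, and replicate 1 (circles) is the lowest miR-148a-3p library in 11 of them.

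Fork genes were divided, with 10 of the 18 tested members higher and 8 lower in the miR-148a-3p group and a median log2 fold change of 0.20 (-0.014 without miR-148a-3p replicate 3). LIG1 had 57.3, 103 and 93.8 CPM in the miR-148a-3p libraries, against 34.7, 54.8 and 34.1 CPM in the control libraries. The means were 84.7 ± 24.1 CPM with miR-148a-3p and 41.2 ± 11.8 CPM with control miRNA (SD, n = 3 each). Its log2 fold change was 1.02 with an SE of 0.29 and an edgeR adjusted p of 0.322. The lowest miR-148a-3p library, replicate 1, lay just above the highest control library, replicate 2. Leaving out each library in turn moved the LIG1 value between 0.84 and 1.27, with adjusted p from 0.121 to 0.998. FEN1, the flap nuclease that acts just before the ligase, had -0.12 (SE 0.25), so the pair of lagging-strand genes had fitted values of opposite sign.

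RFC2, a subunit of the clamp loader, had 29.7, 47.3 and 64.2 CPM in the miR-148a-3p libraries, against 19.3, 14.001 and 37.5 CPM in the control libraries, with an edgeR log2 fold change of 0.95 (SE 0.38, adjusted p = 0.640). These levels rest on 12 to 45 counts per library, and control replicate 3 lay above miR-148a-3p replicate 1. Leaving out 1 library at a time, the RFC2 value ran from 0.68 (without miR-148a-3p replicate 3) to 1.44 (without control replicate 3). RFC4, another loader subunit, had 42.8, 72.2 and 57.6 CPM in the miR-148a-3p libraries, against 26.0, 47.8 and 50.1 CPM in the control libraries (0.47, SE 0.31, edgeR adjusted p = 0.793), again with overlap at miR-148a-3p replicate 1. Its value was 0.21 without control replicate 1 and 0.27 without miR-148a-3p replicate 2. The subunits RFC3 (-0.061, SE 0.37) and RFC5 (-0.38, SE 0.31) had lower fitted values. PCNA, the clamp that the loader places on DNA, had 132, 139.6 and 98.8 CPM in the miR-148a-3p libraries, against 159.9, 113 and 133 CPM in the control libraries (-0.12, SE 0.21). Control replicate 1 was its highest library and miR-148a-3p replicate 3 its lowest. Clamp and loader together had 2 of 5 members higher, with a median of -0.061.

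Of the 3 polymerase catalytic subunits 1 had a higher fitted value, and their median log2 fold change was -0.32. POLA1, which starts each fragment with primase, had -0.32 (SE 0.32), POLD1, the lagging-strand polymerase subunit, had -0.43 (SE 0.52), and POLE, the leading-strand subunit, had 0.20 (SE 0.39). POLD1 had 2 to 26 counts per library, which leaves its value imprecise. In the group that turns the MCM ring into an active helicase, 4 of 5 tested members were higher, with a median of 0.23. CDC45 had 0.64 (SE 0.64) from 3 to 19 counts per library, GINS2 0.49 (SE 0.33), MCM10 0.23 (SE 0.26), GINS1 0.21 (SE 0.32) and GINS4 -0.084 (SE 0.54). The single-strand binding subunits RPA2 (0.47, SE 0.31) and RPA3 (0.21, SE 0.30) had higher fitted values and RPA1 (-0.21, SE 0.24) a lower one.

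In the nucleotide group 5 of 6 members had a higher fitted value in the miR-148a-3p group, with a median log2 fold change of 0.26 (0.0024 without control replicate 1). TK1, the cytosolic thymidine kinase of S-phase cells, had 101, 249.6 and 252 CPM in the miR-148a-3p libraries, against 79.9, 129.5 and 110.3 CPM in the control libraries. The means were 201 ± 86.6 CPM with miR-148a-3p and 107 ± 25.0 CPM with control miRNA (SD, n = 3 each), with an edgeR log2 fold change of 0.89, an SE of 0.27 and an edgeR adjusted p of 0.398. Replicates 2 and 3 of the miR-148a-3p group stood far above every control library, and its replicate 1 lay among them. Without replicate 1 of both groups the TK1 value was 1.06 (SE 0.21, edgeR adjusted p = 0.0116, with 27 of 8975 genes called, 0.301%), and with no filter on low counts its adjusted p was 0.0430, with 18 of 15659 genes called (0.115%). Leaving out 1 library at a time, the TK1 value ran from 0.69 (edgeR adjusted p = 0.936, without miR-148a-3p replicate 2) to 1.24 (edgeR adjusted p = 0.0507, without miR-148a-3p replicate 1), and adjusted p reached 0.998 without miR-148a-3p replicate 3.

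UNG, which removes uracil from DNA, had 105, 155 and 158 CPM in the miR-148a-3p libraries, against 92.5, 89.8 and 122 CPM in the control libraries (0.44, SE 0.23, edgeR adjusted p = 0.726), with control replicate 3 above miR-148a-3p replicate 1. RRM2, the S-phase subunit of ribonucleotide reductase, had 190.5, 252 and 175 CPM in the miR-148a-3p libraries, against 97.3, 181 and 200.2 CPM in the control libraries (0.38, SE 0.23, edgeR adjusted p = 0.772), with control replicate 1 far below the other 5 libraries. The RRM2 value ran from 0.11 (without control replicate 1) to 0.58 (without control replicate 3). Its partner RRM1 had -0.087 (SE 0.18), thymidylate synthase TYMS 0.15 (SE 0.24), and SLBP, which binds the stem-loop of histone mRNAs, 0.037 (SE 0.36). The reductase subunits thus had fitted values of opposite sign, neither past the test.

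Of the cyclins and regulators, 4 of 5 had a higher fitted value, with a median log2 fold change of 0.30 (-0.0014 without control replicate 1). At an unadjusted p below 0.05 in edgeR there were 0 of these 5, against 6.79% of all genes tested, a share too small to tell from 0 in so few genes. E2F1, the transcription factor at the head of this programme, had 17.8, 43.8 and 51.0 CPM in the miR-148a-3p libraries, against 12.5, 38.5 and 27.3 CPM in the control libraries (0.47, SE 0.41, edgeR adjusted p = 0.876). Replicate 1 was well below the other libraries in both groups. Leaving out 1 library at a time, the E2F1 value ran from 0.11 (without control replicate 1) to 0.87 (without miR-148a-3p replicate 1). CCNE1, the E-type cyclin that activates CDK2, had 41.5, 49.7 and 46.1 CPM in the miR-148a-3p libraries, against 16.4, 44.3 and 51.2 CPM in the control libraries (0.30, SE 0.34, edgeR adjusted p = 0.904). Control replicate 1 alone stood apart, and without it the CCNE1 value was -0.073, against 0.61 without control replicate 3.

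CDC25A, the phosphatase that activates CDK2, had 43.5, 69.8 and 69.1 CPM in the miR-148a-3p libraries, against 34.7, 57.2 and 61.4 CPM in the control libraries (0.23, SE 0.29, edgeR adjusted p = 0.912), and its value ran from -0.0014 (without control replicate 1) to 0.45 (without miR-148a-3p replicate 1). CCND1, the D-type cyclin that responds to growth signals, had 2830.3, 3655 and 3024 CPM in the miR-148a-3p libraries, against 3392, 3455 and 3104 CPM in the control libraries (-0.066, SE 0.16). Its 6 libraries overlapped fully. The other E-type cyclin, CCNE2, had 0.31 (SE 0.46) from 10 to 20 counts per library.

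Replicate 1 was low in these genes in both groups. The comparison of replicate 1 with the others was set beforehand, with earlier results of these data known. With CCND1 left out, the members made up 0.251, 0.387 and 0.359% of all counts in miR-148a-3p replicates 1 to 3, against 0.224, 0.300 and 0.294% in control replicates 1 to 3. On the log2 CPM scale, each gene centred on its 6-library mean, the 39 members averaged -0.24, 0.37 and 0.28 in the miR-148a-3p libraries, against -0.44, 0.041 and -0.014 in the control libraries. All genes tested averaged between -0.019 and 0.017 in these libraries, where the TMM scaling holds such an average near 0. The replicate 1 library of each group thus lay below its other two, and miR-148a-3p replicate 1 lay below control replicates 2 and 3.

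Replicate 1 minus the mean of replicates 2 and 3 was -0.56 in the miR-148a-3p group and -0.45 in the control group over the members, against 0.025 and -0.023 over all genes tested. In the miR-148a-3p group 34 of 39 members (87.2%, against 31.2% of all genes tested) were lowest in replicate 1, and in the control group 26 of 39 (66.7%, against 37% of all genes tested). In both groups at once 23 of 39 members (59.0%) were lowest in replicate 1, against 13.7% of all genes tested, and 0 were highest in it, against 14.4%. The 64 other replication and G1/S genes were also low in replicate 1, with differences of -0.18 in the miR-148a-3p group and -0.17 in the control group, and 20 of them (31.2%) were lowest in it in both groups. Since replicate 1 was also the deepest library of each group, all libraries were thinned to the smallest total. Over the 36 members that then passed the filter, the differences were -0.46 in the miR-148a-3p group and -0.40 in the control group. These are fewer members than the 39 above, so the values before and after thinning are not over the same genes.

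**Figure D4:**
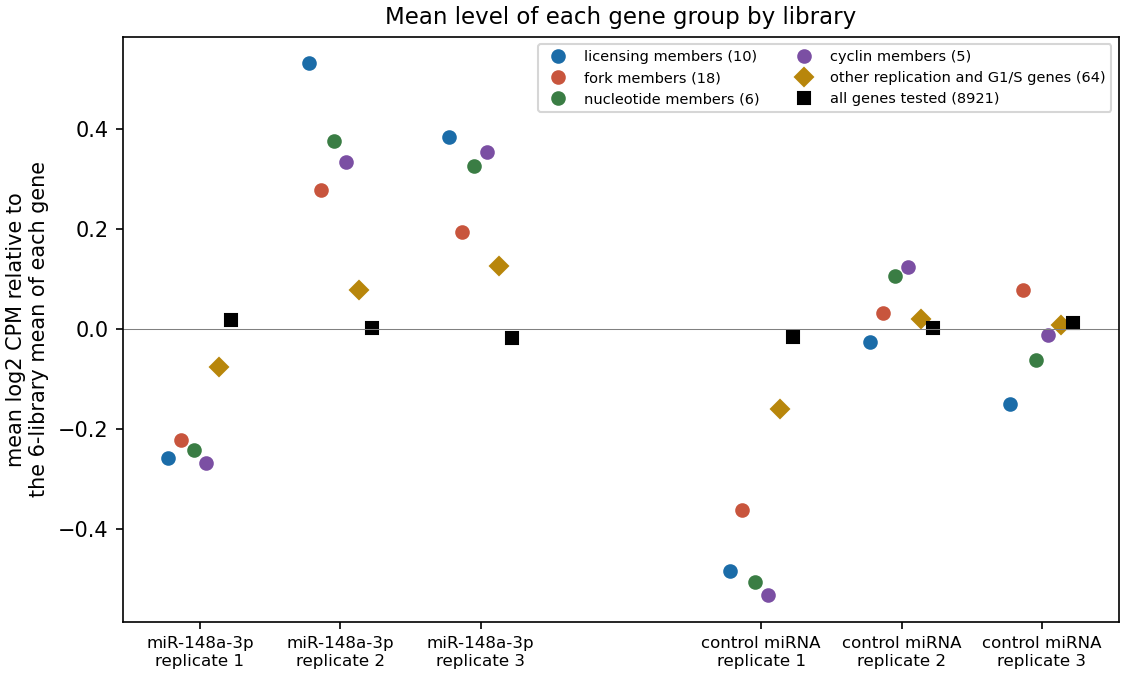
Mean log2 CPM of each subgroup in each library, relative to each gene's 6-library mean, for the 4 subgroups of members, 64 other replication and G1/S genes and all 8921 genes tested, with 1 point per group and library. All 4 subgroups lie below 0 in replicate 1 of both groups, while all genes tested stay near 0, where the TMM scaling holds them.

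By subgroup, replicate 1 minus the others was -0.72 for licensing, -0.46 for fork, -0.59 for nucleotide and -0.61 for cyclin members in the miR-148a-3p group. In the control group it was -0.39 for licensing, -0.42 for fork, -0.53 for nucleotide and -0.59 for cyclin members. E2F1 (-1.31 with miR-148a-3p, -1.24 with control miRNA), CDC45 (-1.53 and -1.38) and ORC1 (-1.19 and -1.10) were more than 1 log2 unit low in replicate 1 of both groups. The CDC45 and ORC1 values rest on few reads, 3 to 19 and 4 to 15 counts per library. POLD1 (1.15), POLE (0.60) and PCNA (0.16) were the members above the mean of the other replicates in miR-148a-3p replicate 1, and of these PCNA was also above it in control replicate 1 (0.38). The 10 licensing members were all lowest in replicate 1 of the miR-148a-3p group, and 7 of them were also lowest in replicate 1 of the control group. Same-numbered libraries were not shown to be pairs, and what set replicate 1 apart was not tested.

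**Figure D5:**
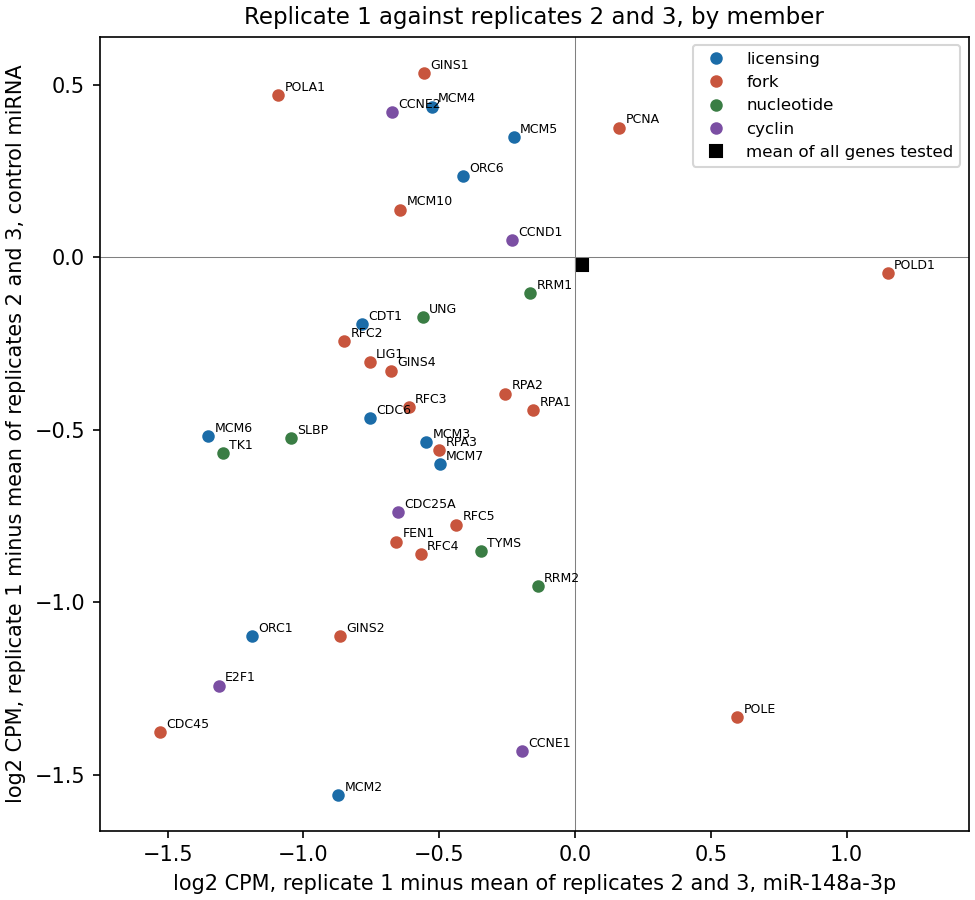
Replicate 1 minus the mean of replicates 2 and 3, in log2 CPM, for each tested member, with the miR-148a-3p group on the horizontal axis and the control group on the vertical axis. Most members lie in the lower left corner, below 0 in both groups, and POLD1 and POLE lie to the right with values of 1.15 and 0.60 in the miR-148a-3p group.

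Other genes of the same pathways, 76 by name, had a median nearer to that of all genes tested. Of these 64 were tested, 38 had a higher and 26 a lower fitted value in the miR-148a-3p group (59.4% higher, against 49.5% of all genes tested), and the median log2 fold change was 0.12. In edgeR's test 0 had an adjusted p below 0.05 (0.0112% of all genes tested), and DESeq2 and limma-voom also called 0. At an unadjusted p below 0.05 in edgeR there were 4 higher (6.25% of 64) and 2 lower (3.12% of 64), against 3.4% of all genes tested in each direction. The 2 with the smallest p, RB1 and CDKN1B, lay lower in the miR-148a-3p group, while the CDK inhibitor CDKN2C lay higher (1.01, SE 0.48). The RB1 levels rest on 8 to 36 counts per library. RB1, the pocket protein that holds E2F factors inactive, had 18.5, 17.7 and 13.2 CPM in the miR-148a-3p libraries, against 32.7, 42.0 and 41.0 CPM in the control libraries, with an edgeR log2 fold change of -1.19 (SE 0.36, adjusted p = 0.398). CDKN1B, which encodes the CDK inhibitor p27, had 105, 74.5 and 60.9 CPM in the miR-148a-3p libraries, against 114, 153 and 142 CPM in the control libraries, with an edgeR log2 fold change of -0.73 (SE 0.23, adjusted p = 0.428). For both genes all miR-148a-3p libraries lay below all control libraries. Without replicate 1 of both groups the CDKN1B value was -1.11 (SE 0.25, edgeR adjusted p = 0.0422). That fit called 27 of 8975 genes (0.301%), against 0.0112% with all libraries.

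CHAF1A, a subunit of the chromatin assembly factor that follows the fork, had 89.6, 125 and 155 CPM in the miR-148a-3p libraries, against 96.3, 73.5 and 63.7 CPM in the control libraries (0.63, SE 0.24, edgeR adjusted p = 0.622). CDK4, the kinase partner of D-type cyclins, had 212, 348 and 258 CPM in the miR-148a-3p libraries, against 130.0, 238 and 221 CPM in the control libraries (0.47, SE 0.22, edgeR adjusted p = 0.725). For both genes miR-148a-3p replicate 1 fell among the control libraries, and the CDK4 value was 0.24 without control replicate 1 and 0.26 without miR-148a-3p replicate 2. Groups did not overlap for 4 of the 64 genes. They were higher in 1 (6.22% of all genes tested) and lower in 3 (6.59% of all genes tested), shares no larger than the background. The 1 was CDKN2C (1.01, SE 0.48), another CDK inhibitor, and the 3 were RB1, CDKN1B and the polymerase subunit POLE4 (-0.79, SE 0.41), of which CDKN2C and POLE4 are named here after their values were seen.

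Spans of 8 members overlapped another counted gene in the RefSeq annotation of GRCh38.p14. They were ORC1 with PRPF38A, MCM7 with AP4M1, GINS2 with GSE1, POLA1 with SCARNA23 and EEF1B2P3, RFC5 with WSB2, RPA3 with UMAD1, TYMS with TYMSOS and ENOSF1, and CCNE2 with INTS8 and NDUFAF6. The sources used here do not say whether the counting used strand, so reads from such partners cannot be told apart. Over the 6 libraries ORC1 had 56 counts beside 666 of PRPF38A, and CCNE2 had 94 beside 260 of INTS8. In the pathway list CHAF1A overlapped UBXN6 and CDK4 overlapped TSPAN31.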

How the data were processed

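Messenger RNA was measured in 6 libraries of HCT116 DROSHA-KO cells and small RNA in 1 library of HCT116 wild-type cells. The deposited values are raw counts per gene symbol (mRNA) and per microRNA isoform (small RNA), and a member absent from a list would have been read as 0. Per the submitters' processing notes the reads were handled with cutadapt, STAR and Bowtie2 against GRCh38, with no roles or versions stated. The sources used here name neither the counter nor its annotation or use of strand. The authors' columns of 5' and 3' end offsets in the small RNA list, deposited as other numbers with no count unit, were not used for values.

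The test was edgeR 4.0.16 under R 4.3.3 (filterByExpr, TMM scaling, quasi-likelihood test, Benjamini-Hochberg threshold 0.05) over 8921 genes, with a prior count of 2 for log2 CPM. The procedure was also run on simulated counts, in which no shift was shared by the genes of a library. That run does not show how the test behaves for members that shift together. DESeq2 1.42.0, limma 3.58.1 (voom), other scalings, filters, thinning and left-out libraries were tried as alternatives. The labels do not say that replicates are separate cultures, so the p-values speak of the spread among 3 libraries per group, possibly technical. Library pairs within a group differed by more than sampling noise (chi-square per degree of freedom 2.54 to 5.86). The members, gene lists and tests were chosen with earlier results of these data known. Values per library are given for the 3 members with the smallest p in each subgroup, MCM2 to MCM7, CCND1, CCNE1, E2F1, PCNA and the 4 pathway genes with the smallest p. Sequences come from RefSeq (GRCh38.p14), and 33 of the 40 members matched a promoter window.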

Additional observations from a re-analysis of the deposited data

Results flagged for a closer look

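Signal lay in data that the comparison of the transfected cells does not use. The small RNA library of HCT116 wild-type cells held counts for the 6 microRNA arms within MCM7, each above 3 counts, the limit for a count of 0. miR-25-3p had 19534 counts and miR-25-5p 55, miR-93-5p had 5033 and miR-93-3p 72, and miR-106b-3p had 1525 and miR-106b-5p 571. The library has no replicate and no control, and these microRNAs were not measured in the DROSHA-KO cells here.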

How the results depend on the processing

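The number of members past the threshold was 0 in every alternative except 2: it was 1 (TK1) with no filter on low counts, where 18 of 15659 genes were called (0.115%), and 1 (TK1) without replicate 1 of both groups, where 1 pathway gene (CDKN1B) also passed and 27 of 8975 genes were called (0.301%), against 0.0112% with all libraries and the filter. Leaving out 1 library at a time left 0 members and 0 pathway genes past it, and 25 to 34 members with a higher fitted value (25 without control replicate 1). Over these fits the median log2 fold change ran from 0.11 (without control replicate 1) to 0.43 (without miR-148a-3p replicate 1) for the members, 0.21 to 0.60 for licensing, -0.014 (without miR-148a-3p replicate 3) to 0.26 for fork, 0.0024 (without control replicate 1) to 0.42 for nucleotide and -0.0014 (without control replicate 1) to 0.45 for cyclin members. Without control replicate 1, edgeR called 26 of 9309 genes (0.279%) and 0 members. The cause of these shifts was not tested. Replicate 1 minus the other 1 replicate, added after seeing the data, was -0.61 to -0.52 with miR-148a-3p and -0.48 to -0.42 with control miRNA.

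Signs changed for 5 genes, of which MCM4, CCND1 and PCNA had values near 0. Without control replicate 1, CCNE1 had -0.073, CDC25A -0.0014, PCNA 0.017 and MCM4 0.14. MCM4 had 0.18 without miR-148a-3p replicate 1, 0.088 without miR-148a-3p replicate 3, 0.089 without control replicate 2 and 0.34 without replicate 1 of both groups. CCND1 had 0.011 without miR-148a-3p replicate 1 and 0.026 without replicate 1 of both groups. Over the 6 fits that left out 1 library, CCNE1 reached 0.61 (without control replicate 3), and the lowest values were -0.34 for MCM4 and -0.18 for CCND1 (without miR-148a-3p replicate 2) and -0.24 for PCNA (without control replicate 2). Of 330 values for 22 named genes, 317 kept direction and side of the threshold. None of these genes passed in the main fit, so this means only the same sign and still no call. Sizes moved more, from 0.24 to 1.03 for MCM6 and from 0.11 to 0.87 for E2F1. Dividing isoform counts by their loci gave 0.851% for the MCM7 microRNAs, and the 5-letter E2F core was present in 100% of members with a window, against 96.6% of tested genes.

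The numbers were not shown to pair the libraries. Deviations of same-numbered libraries correlated at 0.133, 0.093 and -0.0019, the first and second being the highest of the 9 combinations, and miR-148a-3p replicate 3 correlated best with control replicate 2. With the replicate block, 3 of 8921 genes and 0 members were called, and MCM2 had an adjusted p of 0.0848. At these totals, members with few counts (POLD1, CDC45, ORC1, GINS3) limit what can be seen.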
